A study of Mus musculus with 60 samples.

Results

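The class IIa histone deacetylases and the corepressors they act with were followed in the cortex of sleep-deprived, recovering and undisturbed mice. The set holds 9 genes chosen by name: the class IIa enzymes Hdac4, Hdac5, Hdac7 and Hdac9, the class I enzyme Hdac3, the corepressor subunits Ncor1 and Tbl1xr1, and the scaffolds Sin3a and Sin3b. A gene stood for the probeset (the probes for 1 transcript) that the platform's probe-to-gene table assigns to it. Of the 9 genes, 8 had a probeset, with 1 each, so that no choice among several was needed. All 8 passed the filter on low values, as did 32819 of the 41345 probesets on the array, and these kept probesets name 18386 genes. Ncor1 (chr11:62315663-62457414, GRCm38.p6) was not matched in that table and has no RNA level here. The study drew attention to Hdac9 and Sin3a in these same mice, so their values here are not independent evidence.

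Histone deacetylases take acetyl groups off histone tails and are best known for holding genes in a repressed state. Class IIa enzymes have little catalytic activity of their own: they bind DNA-bound factors such as those of the MEF2 family and bring in HDAC3, which is active inside the complex built on the corepressor NCoR1, with TBL1XR1 as a subunit. SIN3A and SIN3B are scaffolds of another complex, which carries HDAC1 and HDAC2. In neurons, electrical activity leads calcium-dependent and other kinases to phosphorylate class IIa enzymes, which then bind 14-3-3 proteins and leave the nucleus. The arrays read RNA levels, and neither protein, phosphorylation nor location in the cell was measured.

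RNA came from the left cortex of male C57BL/6J mice, an inbred strain, 2 months old, and each mouse was read on its own Affymetrix Mouse Gene 2.1 ST array. The SD group (sleep-deprived, n = 7) was kept active with a brush for 6 h from lights on (zeitgeber time 0, ZT0) and collected at ZT6. Recovering mice had 6 h of sleep deprivation and then 2 h left to sleep (RS2, n = 4, ZT8), or 5 h of it and then 3 h (RS3, n = 7, ZT8) or 6 h (RS6, n = 7, ZT11). The circadian controls CC0, CC6, CC7, CC8 and CC11, each named by its ZT, were handled but otherwise left undisturbed, with 6 mice in CC7 and 7 in each other group. No electroencephalogram was recorded, so that wakefulness and sleep were not measured in these animals. SD was compared with CC6, RS2 and RS3 with CC8, and RS6 with CC11. In differences between RS3 or RS6 and SD, the hours of recovery and the shorter sleep deprivation cannot be told apart. Levels below are log2 intensities after robust multi-array average (RMA), in which 1 unit is a doubling, and are compared between groups and never between genes.

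Fold changes are log2 differences from limma with 6 factors of unwanted variation (RUV) in the model beside the 9 groups, and a probeset was called at a false discovery rate (FDR) under 0.01 over all 32819 probesets. On each array between 78.1% and 81.1% of all probesets lay over a log2 value of 4, and the number of mice limits the precision. The neuronal marker Slc17a7 averaged 11.4 and the myelin gene Mbp 9.52 over the 59 arrays. Drd1 (8.11) and Drd2 (8.79), markers of the striatum, which lies under the cortex, were also read, and the mean level of the 7 measured striatum markers ran from 7.86 to 8.93 in SD and from 8.03 to 9.27 in CC6. The 5 arrays SD replicates 1 and 2, RS6 replicate 1, CC8 replicate 1 and CC0 replicate 1 stood apart on the first principal component of the RMA values, with scores from -135.9 to -30.0, and 4 of the 5 carry the replicate number 1.

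The RMA levels of most members lay apart on these 5 arrays. Hdac5 was higher on each of them than the mean of the other arrays of its group, by 0.54 to 1.12, as was Sin3b, by 0.06 to 0.63. Tbl1xr1 differed from the other arrays of its group by -0.58 to -0.25 and Hdac9 by -0.53 to -0.18, so that both were lower on all 5. For Hdac5, Hdac9, Sin3a and Tbl1xr1 all 5 arrays lay outside the range of the others in their group, against 4 for Sin3b, 3 for Hdac3, 2 for Hdac4 and 1 for Hdac7. The directions for Sin3b, Tbl1xr1 and Hdac9 were those of the sleep deprivation effect described next, and SD holds 2 of the 5 arrays while CC6 holds none. After the factors were removed, the same deviations lay between -0.14 and 0.13 for all 8 members. RUV as used here draws deviating arrays towards their group, so this narrowing follows from the method and is no check of it. Each call of a member below is also given without these arrays.

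**Figure D1:**
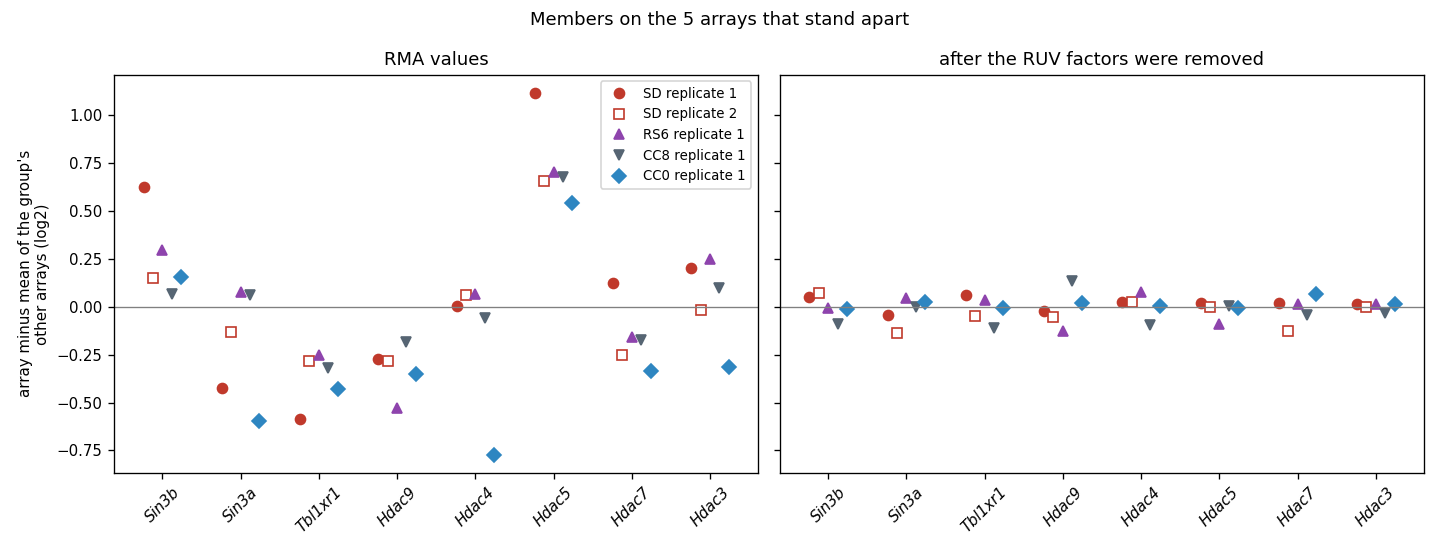
Deviation of each member on the 5 arrays that stand apart, as the array minus the mean of the other arrays of its group (log2, vertical axis), with RMA values on the left and after removal of the RUV factors on the right; each symbol is 1 array. With RMA, Hdac5 lay 0.54 to 1.12 above the rest of its groups and Tbl1xr1 between -0.58 and -0.25 from the rest. After RUV, which draws deviating arrays towards their group, all members lay between -0.14 and 0.13.

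After 6 h of sleep deprivation, 1 scaffold gene rose, and 1 corepressor subunit and 1 class IIa enzyme fell. The direction was not shared within these classes. Hdac4 (0.12) and Hdac5 (0.11) had positive log2 fold changes and the other scaffold, Sin3a, a negative one (-0.13), none of them called. Of the 8 measured members, 3 passed the threshold, where 1.93% of all kept probesets did. The members and gene lists were chosen with earlier results of these data known. Neither this count nor those below are therefore independent evidence about the set. Sin3b rose, as did 1.09% of all probesets, and Tbl1xr1 and Hdac9 fell, as did 0.844%. The changes were small, with fold changes over the 8 members between -0.21 and 0.22 and a median of -0.07, beside a median of 0.0008 over all probesets. With RMA alone 2 members passed, Sin3b and Tbl1xr1, where 1.29% of all probesets did. At an unadjusted p under 0.05 from limma, 7 of 8 members passed, against 15.9% of all probesets. These shares include many probesets of low level, while the members lay between the 66.4 and 93.5 percentile of mean level. With a filter at a log2 value of 6, 4.23% of 18412 probesets passed an FDR under 0.01, and 4 members did.

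**Figure D2:**
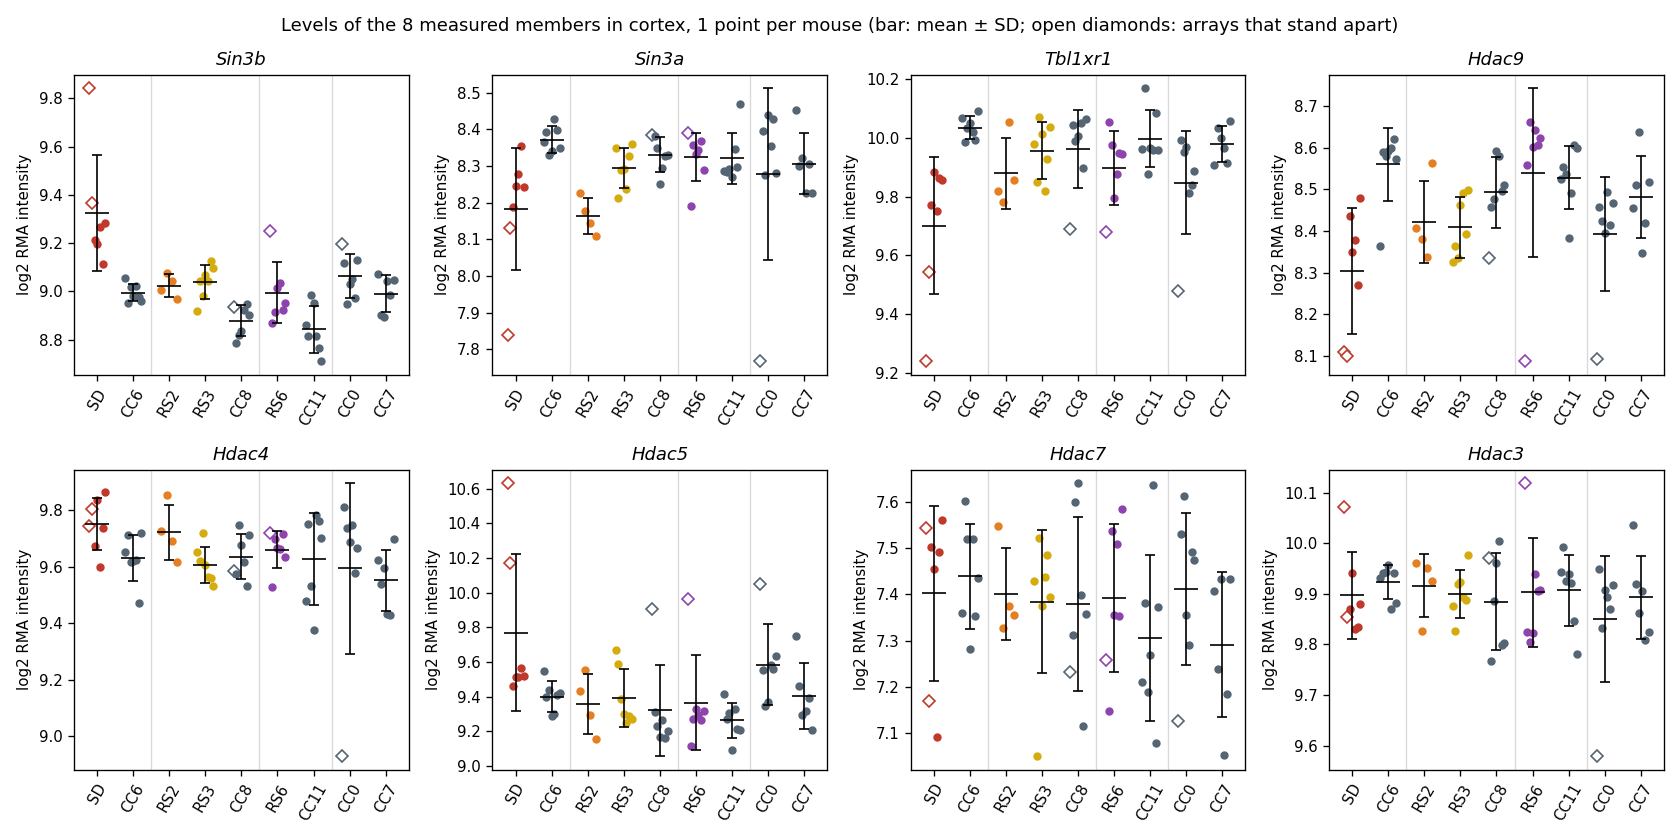
log2 RMA intensity of the 8 measured members (vertical axis, 1 panel per gene) in each group (horizontal axis), with 1 point per mouse, bars for the mean ± SD, and open diamonds for the 5 arrays that stand apart. For Sin3b every SD mouse lies above every CC6 mouse, and for Tbl1xr1 every SD mouse lies below every CC6 mouse. SD and CC6 did not overlap for 1.6% of all probesets.

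Sin3b, 1 of the 2 scaffolds of the SIN3 complex (probeset 17502499, chr8:72723270-72758203), had its highest mean in sleep-deprived mice. Its level ran from 9.11 to 9.84 in SD (median 9.27), against 8.95 to 9.05 in CC6 (median 8.98). Every SD mouse lay above every CC6 mouse, and for 1.6% of all probesets SD and CC6 did not overlap. After RUV Sin3b was 16.8% higher in SD (log2 fold change 0.22, SE 0.04, 95% interval 0.14 to 0.31, adjusted p = 0.000224 from limma). The RMA values gave a log2 fold change of 0.33 (adjusted p = 0.000718). SD replicate 1, at 9.84, was the highest of all 59 arrays for this gene and is 1 of the arrays that stand apart. Without the 5 arrays the log2 fold change was 0.21 (adjusted p = 0.000305).

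Over the 9 groups the mean level of Sin3b stood in the order SD (9.33 ± 0.24), CC0 (9.06 ± 0.09), RS3 (9.04 ± 0.07), RS2 (9.02 ± 0.05), CC6 (8.99 ± 0.04), RS6 (8.99 ± 0.13), CC7 (8.99 ± 0.08), CC8 (8.88 ± 0.06) and CC11 (8.84 ± 0.10), each with its SD over mice. SD stood off from CC0, the next in order, by more than 1 SD, as CC7 did from CC8. The other neighbours lay within 1 SD of each other.

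Sin3a, the other SIN3 scaffold (probeset 17517634, chr9:57071991-57128368), did not pass, though its groups hardly overlapped. Its level ran from 7.84 to 8.35 in SD (median 8.24), against 8.33 to 8.43 in CC6 (median 8.37). With RMA 6 of 7 SD mice lay below every CC6 mouse, and after RUV 7 of 7 did, where the adjusted values of the groups did not overlap for 2.73% of all probesets. Sin3a had a log2 fold change of -0.13 (SE 0.03, 95% interval -0.20 to -0.07) with an adjusted p = 0.0122 from limma, just over the threshold, and -0.19 with RMA (adjusted p = 0.0681). The gene passed under 6 of 26 other settings or sets of mice, among them 9 factors (adjusted p = 0.00693) and without SD replicate 6 (adjusted p = 0.00826) or CC6 replicate 3 (adjusted p = 0.00862). Without the 5 arrays that stand apart the log2 fold change was -0.11 (adjusted p = 0.0419).

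Tbl1xr1, a subunit of the NCoR complex (probeset 17396315, chr3:22076253-22216594), fell. Its level ran from 9.24 to 9.88 in SD (median 9.77), against 9.99 to 10.09 in CC6 (median 10.03). Each of the 7 SD mice lay below every CC6 mouse, and for 1.6% of all probesets SD and CC6 did not overlap. After RUV the level fell by 13.4% in SD, a log2 fold change of -0.21 (SE 0.04, 95% interval -0.30 to -0.12, adjusted p = 0.00171 from limma). With RMA it was -0.33 (adjusted p = 0.00414), and without the 5 arrays that stand apart -0.20 (adjusted p = 0.00482). From the lowest mean upwards the groups stood as SD (9.70 ± 0.23), CC0 (9.85 ± 0.18), RS2 (9.88 ± 0.12), RS6 (9.90 ± 0.12), RS3 (9.96 ± 0.10), CC8 (9.96 ± 0.13), CC7 (9.98 ± 0.06), CC11 (10.00 ± 0.10) and CC6 (10.03 ± 0.04), mean ± SD over mice. All neighbours in this order lay within 1 SD of each other, and SD lay over 1 SD from CC6.

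Of 2 other listed subunits of the NCoR complex, neither passed in SD, with none at an unadjusted p under 0.05 in limma and none called with RMA. The fold change of Tbl1x, a paralog of Tbl1xr1, was -0.06 on the log2 scale (adjusted p = 0.396), and that of Gps2 was 0.01 (adjusted p = 0.980).

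Hdac9 was the only class IIa enzyme past the threshold after RUV, and it fell. This gene (probeset 17280689, chr12:34047580-34917095) also yields a splice form without the catalytic domain, and the probeset does not tell the forms apart here. Its level ran from 8.10 to 8.48 in SD (median 8.35), against 8.36 to 8.62 in CC6 (median 8.59), so that the ranges overlapped. With RMA 4 of 7 SD mice lay below every CC6 mouse, and after RUV 6 of 7 did. After RUV Hdac9 fell by 11.3% (log2 fold change -0.17, SE 0.04, 95% interval -0.26 to -0.09, adjusted p = 0.00765 from limma). The means of the other groups lay between 8.39 ± 0.14 (CC0) and 8.56 ± 0.09 (CC6), and SD was at 8.30 ± 0.15.

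The call of Hdac9 lay close to the threshold, and it was lost without most single mice and under some of the processing. With RMA the log2 fold change was -0.26 and did not pass (adjusted p = 0.0178), and without the 5 arrays that stand apart it was -0.16 (adjusted p = 0.0190). It did not pass without SD replicate 1, 2, 4, 5 or 6, nor without CC6 replicate 2, 3, 4, 5, 6 or 7, each left out alone, with adjusted p-values from 0.0121 to 0.0360. It passed in 10 of 26 alternatives, and its direction was the same in all 26, with log2 fold changes from -0.26 to -0.15. By contrast Sin3b and Tbl1xr1 passed in 26 of 26, with adjusted p-values up to 0.00151 and 0.00841.

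**Figure D3:**
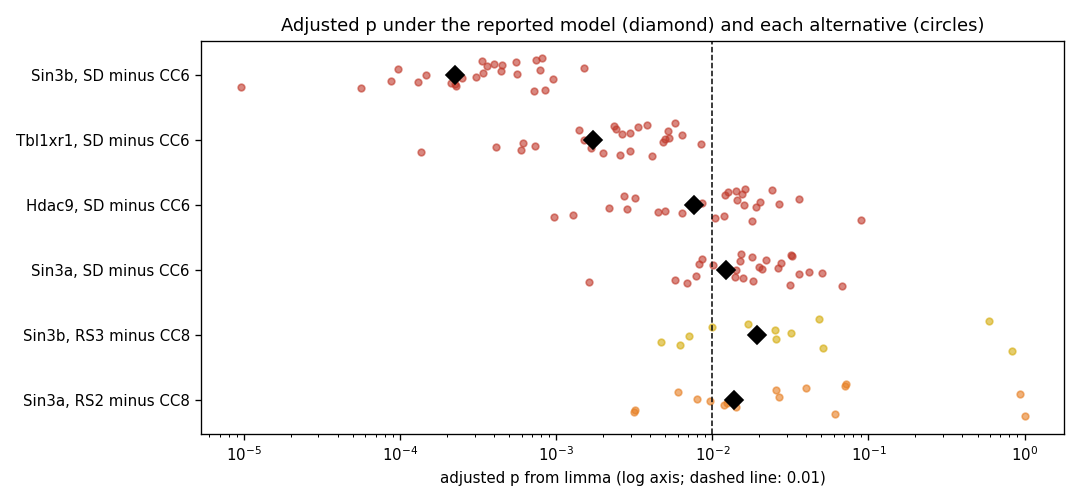
Adjusted p from limma (log axis) for 6 member comparisons, with a black diamond for the reported model and 1 circle for each alternative setting or left-out array; the dashed line is the threshold of 0.01. All 26 alternatives for Sin3b and for Tbl1xr1 in SD minus CC6 lie left of the line, while those for Hdac9 and Sin3a lie on both sides of it.

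The other class IIa enzymes and Hdac3 did not pass. Hdac5 (probeset 17270082, chr11:102195747-102230172) ran from 9.46 to 10.63 in SD (median 9.52), against 9.28 to 9.55 in CC6 (median 9.41), and both SD arrays that stand apart were its highest values, at 10.63 and 10.17. Its log2 fold change was 0.11 after RUV (95% interval 0.03 to 0.19, adjusted p = 0.143 from limma). That of the RMA values was 0.37 (adjusted p = 0.0831), and without the 5 arrays that stand apart it was 0.09 (adjusted p = 0.289). Hdac5 passed in 1 alternative, the replicate number as a block with no RUV (0.37, adjusted p = 0.00456), and with the block beside the RUV factors it did not (0.13, adjusted p = 0.105). After RUV every SD mouse lay above every CC6 mouse for this gene, but only 3 of 7 did with RMA. Hdac4 (probeset 17225535, chr1:91928779-92195702), a regulator of MEF2 target genes in neurons, ran from 9.60 to 9.86 in SD (median 9.74), against 9.47 to 9.72 in CC6 (median 9.62). The log2 fold change of Hdac4 was 0.12 (95% interval 0.02 to 0.23, adjusted p = 0.227), and 5 of 7 SD mice lay above every CC6 mouse with RMA. Neither did Hdac7 pass (probeset 17321046, chr15:97792661-97844502), which outside the brain is known from blood vessels and developing T cells. It ran from 7.09 to 7.56 in SD (median 7.49), against 7.28 to 7.60 in CC6 (median 7.44), with a log2 fold change of -0.07 (95% interval -0.21 to 0.08, adjusted p = 0.730). Hdac3 (probeset 17353839), the active enzyme of the NCoR complex, ran from 9.83 to 10.07 in SD (median 9.87), against 9.87 to 9.96 in CC6 (median 9.94), and the SD range enclosed that of CC6. Its log2 fold change was -0.07 (95% interval -0.14 to -0.001, adjusted p = 0.303).

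In bulk cortex, fewer cells of a type and less RNA per cell cannot be told apart, and markers of other cell types moved between the same groups. Of 7 measured oligodendrocyte markers 2 fell in SD, Opalin at -0.51 and Aspa at -0.33, and the mean level of the list ran from 9.07 to 9.37 in SD, against 9.36 to 9.46 in CC6. Among 7 microglia markers P2ry12 fell (-0.29), and the list ran from 7.67 to 7.82 in SD and from 7.66 to 7.84 in CC6. Of 7 endothelial markers Itm2a fell (-0.35), with the list at 7.39 to 8.56 in SD and 8.36 to 8.55 in CC6, and of 7 astrocyte markers Gjb6 rose (0.37), with the list at 8.67 to 9.47 in SD and 9.18 to 9.44 in CC6. Gjb6 did not pass with RMA (adjusted p = 0.510), nor did Aspa (adjusted p = 0.0174). None of 9 excitatory neuron markers (9.61 to 9.75 in SD, 9.51 to 9.75 in CC6) and none of 8 inhibitory neuron markers (8.98 to 9.30 in SD, 8.97 to 9.07 in CC6) passed. None of the 7 striatum markers passed, and all 7 had a negative fold change, with a median of -0.28. The part of cell composition in the changes of Sin3b, Tbl1xr1 and Hdac9 was not tested.

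The sequences before the gene starts are shown for Sin3b and Hdac9, the called members whose outermost annotated start lies at a RefSeq promoter window, as the genes that moved in opposite directions. Both are from RefSeq on GRCm38.p6, the 250 bases upstream of the start, read 5′ to 3′ on the strand of the gene. Sin3b lies on the plus strand (chr8:72723020-72723269) and Hdac9 on the minus strand (chr12:34917096-34917345). Capitals mark the core of the cAMP response element, TGACG, and the GC box, GGGCGG, on either strand.
Sin3b: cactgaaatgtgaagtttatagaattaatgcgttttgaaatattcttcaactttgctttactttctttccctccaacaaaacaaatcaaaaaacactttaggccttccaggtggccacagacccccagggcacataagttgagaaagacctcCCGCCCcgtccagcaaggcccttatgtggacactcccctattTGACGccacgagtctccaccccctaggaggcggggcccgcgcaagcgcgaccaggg
Hdac9: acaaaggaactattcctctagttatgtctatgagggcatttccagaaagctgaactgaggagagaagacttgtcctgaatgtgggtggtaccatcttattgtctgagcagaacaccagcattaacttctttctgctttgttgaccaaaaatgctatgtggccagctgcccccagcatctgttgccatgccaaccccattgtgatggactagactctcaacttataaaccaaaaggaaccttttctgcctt
The Sin3b window held 1 TGACG and 1 GC box (on the opposite strand, as CCGCCC) with 50.8% of G and C, and the Hdac9 window held neither, with 44.4%. Over all 32851 such windows of the annotation the TGACG core stood in 17.8% and the GC box in 32.7%, and the median share of G and C was 52.4%. In 14 windows of 8 genes of the set (Ncor1 included, Hdac3 left out), 4 held TGACG, 8 a GC box, 4 a CCAAT box (33.8% of all windows), 1 the AP-1 motif TGANTCA (6.75%), and none the E-box CACGTG (6.02%) or the full element TGACGTCA (1.55%), both strands searched. The full element contains the core. A match describes letters in these windows, not binding by a factor.

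During recovery sleep no member passed the threshold in any of the 3 comparisons. At RS2 against CC8 the count was 0 of 8, where 0.299% of all probesets passed in limma after RUV, at RS3 against CC8 0 of 8 (0.171%) and at RS6 against CC11 0 of 8 (0.149%). At an unadjusted p under 0.05 from limma, 3 members passed at RS2, 1 at RS3 and 1 at RS6, against 10.5%, 11.7% and 14.1% of all probesets. With RMA no member passed at an FDR under 0.01 at any of these times, and 0.0152% of all probesets did at RS2, 0.0152% at RS3 and none at RS6. The median log2 fold change of the 8 members was 0.03 at RS2, -0.002 at RS3 and 0.04 at RS6, beside 0.0056, 0.0088 and 0.0075 over all probesets. RS2 and RS3 share the CC8 mice, so their values are not independent of each other.

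**Figure D4:**
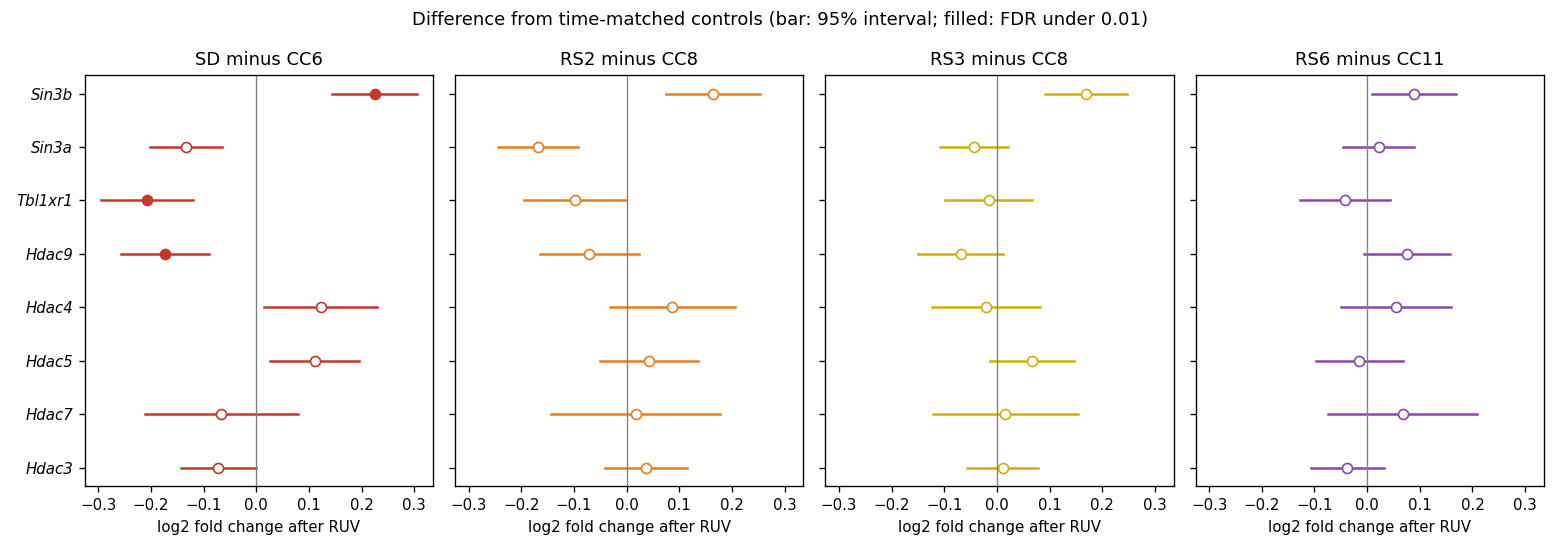
log2 fold change after RUV (horizontal axis) of the 8 measured members in SD and at RS2, RS3 and RS6 against time-matched controls, with 95% intervals; filled points passed an FDR under 0.01. Sin3b, Tbl1xr1 and Hdac9 are filled in SD minus CC6, and no point is filled in the recovery comparisons.

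Sin3b had positive fold changes at each recovery time. Its levels at RS2 were 9.004, 9.08, 9.04 and 8.97, against 8.79 to 8.95 in CC8 (median 8.90), so that all 4 RS2 mice lay above every CC8 mouse, and 1.01% of all probesets had groups that did not overlap (2.39% after RUV). For Sin3b at RS2 the log2 fold change was 0.16 (95% interval 0.07 to 0.25, adjusted p = 0.0714 from limma). At RS3 the levels ran from 8.92 to 9.13 (median 9.04), with 6 of 7 mice above every CC8 mouse with RMA and 7 of 7 after RUV (0.774% of all probesets did not overlap after RUV, 0.308% with RMA), and the log2 fold change was 0.17 (95% interval 0.09 to 0.25, adjusted p = 0.0193). At RS6 they ran from 8.87 to 9.25 (median 8.95), against 8.71 to 8.98 in CC11 (median 8.82), and the groups overlapped (0.381% of all probesets did not, or 0.716% after RUV). Sin3b had 0.09 there (95% interval 0.01 to 0.17, adjusted p = 0.282).

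Sin3a came closest to the threshold at RS2. The 4 RS2 mice were at 8.23, 8.18, 8.14 and 8.11, against 8.25 to 8.38 in CC8 (median 8.33), all below every CC8 mouse (1.01% of all probesets had groups that did not overlap, or 2.39% after RUV). Its log2 fold change was -0.17 (95% interval -0.24 to -0.09) with an adjusted p = 0.0138 from limma, and an adjusted p of 1 with RMA at the same size of -0.17. At RS3 Sin3a had a log2 fold change of -0.04 (95% interval -0.11 to 0.02) and at RS6 of 0.02 (95% interval -0.04 to 0.09). With 4 mice RS2 is the smallest group. Without 1 of its mice at a time the adjusted p lay between 0.0257 and 0.0714, and without the 5 arrays that stand apart it was 0.00600, where CC8 had lost replicate 1. The 7 striatum markers all had negative fold changes at RS2 (median -0.54, none called), with list levels from 7.82 to 8.88 in RS2 and 8.30 to 9.46 in CC8. In limma 2 markers of other lists were called there, neither of them with RMA. These were the inhibitory neuron gene Vip (0.30, adjusted p = 0.00102) and the endothelial gene Itm2a (-0.36, adjusted p = 0.00130). Of the 7 endothelial markers 6 had a positive fold change (list median 0.11). Of the 8 inhibitory neuron markers 5 were positive and 3 negative. The part of these markers in the values at RS2 was not tested.

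Tbl1xr1 and Hdac9, which had fallen in SD, had fold changes nearer 0 at each recovery time. Tbl1xr1 was at 9.82, 9.78, 10.05 and 9.86 at RS2, against 9.69 to 10.06 in CC8 (median 10.01), with a log2 fold change of -0.10 (95% interval -0.19 to -0.0006, adjusted p = 0.472 from limma). Its log2 fold change was -0.02 at RS3 (adjusted p = 0.937) and -0.04 at RS6 (adjusted p = 0.716). Hdac9 was at 8.41, 8.38, 8.34 and 8.56 at RS2, against 8.34 to 8.59 in CC8 (median 8.50), and its log2 fold change was -0.07 at RS2 (adjusted p = 0.643) and -0.07 at RS3 (adjusted p = 0.519). At RS6 its levels ran from 8.09 to 8.66 (median 8.61), against 8.38 to 8.61 in CC11 (median 8.54), where 4 of 7 RS6 mice lay above every CC11 mouse and RS6 replicate 1 lay below all of them. After RUV 5 of 7 lay above, with a log2 fold change of 0.08 (95% interval -0.01 to 0.16, adjusted p = 0.403). The striatum markers were again all negative at RS6 (median -0.43, none called), and their part in these values was not tested.

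Among the other members, Hdac4 had log2 fold changes of 0.09, -0.02 and 0.05 at RS2, RS3 and RS6, Hdac5 of 0.04, 0.07 and -0.01, Hdac7 of 0.02, 0.02 and 0.07, and Hdac3 of 0.04, 0.01 and -0.04. Their adjusted p-values in limma lay between 0.536 and 0.970. Hdac7 had the widest intervals of the set, from -0.14 to 0.18 at RS2.

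Whether the recovery effect differed from the sleep deprivation effect was tested directly, as the recovery fold change minus that of SD. At RS2 0 of 8 members passed, against 0.0518% of all probesets in limma, and at an unadjusted p under 0.05 1 member did, against 7.82%. At RS3 0 of 8 passed (0.207%), and 1 did at an unadjusted p under 0.05 (9.71%). At RS6, 1 of 8 members differed, against 1.03% of all probesets, and 5 had an unadjusted p under 0.05 (14.8%). That member was Hdac9, which differed by 0.25 on the log2 scale (SE 0.06, 95% interval 0.14 to 0.36, adjusted p = 0.00738). This is the difference between 0.08 at RS6 and -0.17 in SD. With RMA it was 0.27 (adjusted p = 0.282), and with 3 RUV factors 0.22 (adjusted p = 0.0792). Without the 5 arrays that stand apart it was 0.28 (adjusted p = 0.00370), while leaving out SD replicate 2, 4, 5 or 6 or CC6 replicate 3, 4, 5, 6 or 7 alone gave adjusted p-values from 0.0102 to 0.0198. With RMA no member passed at RS2 (0.0366% of all probesets), RS3 (0.104%) or RS6 (0.125%). Sin3a (0.16, adjusted p = 0.0519), Tbl1xr1 (0.17, adjusted p = 0.132) and Sin3b (-0.14, adjusted p = 0.202) did not pass at RS6. All 3 tests use the same SD and CC6 mice.

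In undisturbed mice no member passed over the hours of the light phase. The counts were 0 of 8 for CC6 against CC0 (0.158% of all probesets passed in limma), 0 of 8 for CC11 against CC6 (0.265%), 0 of 8 for CC11 against CC0 (0.975%), and 0 of 8 for any difference among the 5 control groups (0.896%). At an unadjusted p under 0.05, 3 members passed in each of the first 3 comparisons, against 9.49%, 15.4% and 15.5% of all probesets in that order. With RMA none passed at an FDR under 0.01, against 0.0548%, 0.0183% and 0.387%. Sin3b came closest: its mean was 9.06 at CC0, 8.99 at CC6, 8.99 at CC7, 8.88 at CC8 and 8.84 at CC11. CC11 mice ran from 8.71 to 8.98 and CC0 mice from 8.95 to 9.20, and the log2 fold change of CC11 against CC0 was -0.16 (95% interval -0.24 to -0.07, adjusted p = 0.0209). With RMA it was -0.22 (adjusted p = 0.0642). Over the 5 control groups the adjusted p of Sin3b was 0.0220. Without the 5 arrays that stand apart, 1 of which is CC0 replicate 1, the log2 fold change was -0.18 and passed (adjusted p = 0.00403). Of the cell type markers, the endothelial genes Cldn5 (-0.53), Kdr (-0.51) and Tek (-0.39) and the excitatory neuron gene Neurod6 (-0.41) were lower at CC11 than at CC0. All 7 striatum markers had positive fold changes there (median 0.50, none called, 4 with an unadjusted p under 0.05), with list levels from 8.63 to 9.46 in CC11 and 8.11 to 9.26 in CC0. The part of these markers in the values of Sin3b was not tested. Kdr and Tek did not pass with RMA (adjusted p = 0.572 and 0.987).

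After RUV the range of the 5 control means was 0.17 for Sin3b, 0.16 for Hdac5, 0.15 for Hdac7, 0.14 for Tbl1xr1, 0.13 for Hdac9, 0.10 for Hdac4, 0.08 for Sin3a and 0.05 for Hdac3. For Hdac5 the adjusted p over the control groups was 0.0896, and for the rest of the set it lay between 0.199 and 0.779. The log2 fold changes of Sin3b (0.22), Tbl1xr1 (-0.21) and Hdac9 (-0.17) in SD were each larger in size than that gene's range. This range covers the 5 control means, all from the light phase, and not a full day. Also larger than their ranges were the fold changes of Sin3a (-0.13), Hdac4 (0.12) and Hdac3 (-0.07), which were not called. The fold changes of Hdac5 (0.11) and Hdac7 (-0.07) were smaller than their ranges.

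Among genes known to act on class IIa enzymes, 3 kinases rose in SD. Of 14 listed kinases that phosphorylate class IIa histone deacetylases or belong to such families, 3 rose and none fell, where 1.93% of all probesets passed in either direction. With RMA 4 passed, against 1.29% of all probesets. At an unadjusted p under 0.05 from limma after RUV, 9 of 14 passed in either direction, against 15.9%. Sik1, a salt-inducible kinase, ran from 7.67 to 8.46 in SD (median 7.95), against 6.78 to 7.61 in CC6 (median 6.98), with no overlap, and was 0.75 higher on the log2 scale (SE 0.11, adjusted p = 9.01e-06). Camk1g, a calcium/calmodulin-dependent kinase, ran from 8.81 to 9.28 in SD (median 9.01), against 8.23 to 8.51 in CC6 (median 8.39), again with no overlap (as held for 1.6% of all probesets), and its log2 fold change was 0.58 (adjusted p = 1.02e-06). Sik2, a further salt-inducible kinase, ran from 8.62 to 8.99 in SD (median 8.86), against 8.41 to 8.72 in CC6 (median 8.51), with overlapping ranges and a log2 fold change of 0.34 (adjusted p = 2.82e-06). All 3 passed in 26 of 26 alternatives. After RUV these fold changes were larger in size than those of any member of the set, but with RMA that of Sik2 (0.32) was smaller than those of Hdac5 (0.37), Tbl1xr1 (-0.33) and Sin3b (0.33). Phosphorylation was not measured.

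No kinase of the list passed at RS2, RS3 or RS6, at which 4, 2 and 2 of the 14 had an unadjusted p under 0.05 in limma, against 10.5%, 11.7% and 14.1% of all probesets, and none passed with RMA. Set against SD, the effect at RS6 was smaller for Sik1 (-0.94, adjusted p = 0.000117), Sik2 (-0.40, adjusted p = 0.000117) and Camk1g (-0.63, adjusted p = 0.000138), and at RS3 for Sik1 (-0.89, adjusted p = 0.00121) and Camk1g (-0.52, adjusted p = 0.00602). In undisturbed mice Sik2 was lower at CC6 than at CC0 (-0.29, adjusted p = 0.000315) and at CC11 than at CC0 (-0.23, adjusted p = 0.00272), both lost with RMA (adjusted p = 0.257 and 0.206). The difference of Sik2 at RS6 from SD was also lost with RMA (adjusted p = 0.0375), and that of Camk1g at RS3 passed in 19 of 26 alternatives, with adjusted p-values up to 0.0164.

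The other partners held few calls. None of 3 measured MEF2 factors (Mef2b was not matched), the DNA-binding partners of class IIa enzymes, passed in SD, and none of 7 genes of the 14-3-3 proteins did. None of 13 measured further subunits of the SIN3 complex passed (Sap18 and Fam60a were not matched), with a median log2 fold change of 0.02 and a range from -0.11 to 0.23. Of 6 other histone deacetylases none passed, and Hdac1, an enzyme of the SIN3 complex, had -0.21 (adjusted p = 0.0817). None of 7 sirtuins, 14 subunits of the CoREST and NuRD corepressors and 12 histone acetyltransferases passed in limma after RUV, and 1 sirtuin did with RMA. At an unadjusted p under 0.05 the counts were 2 MEF2 factors, 3 genes of 14-3-3 proteins, 4 SIN3 subunits, 1 deacetylase, 1 sirtuin, 5 CoREST and NuRD subunits and 3 acetyltransferases, where 15.9% of all probesets passed at that level. No gene of these lists passed at RS2, RS3 or RS6.

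For CC11 against CC0, 1 of 14 CoREST and NuRD subunits and 1 of 3 MEF2 factors passed, where 0.975% of all probesets did, and no sirtuin, 14-3-3 gene, SIN3 subunit, other deacetylase or acetyltransferase did. Rcor3, a CoREST subunit, ran from 7.93 to 8.25 at CC11 (median 8.15), against 7.15 to 8.00 at CC0 (median 7.81), and was 0.27 higher on the log2 scale (adjusted p = 0.00256), or 0.37 higher with RMA (adjusted p = 0.00262). Mef2a, a MEF2 factor, ran from 11.31 to 11.61 at CC11 (median 11.38), against 10.56 to 11.26 at CC0 (median 11.19), and was 0.15 higher (adjusted p = 0.00814), a call that was lost with RMA (0.29, adjusted p = 0.0577). Mef2a values did not overlap between these groups, as held for 0.628% of all probesets, whereas those of Rcor3 did. The positive striatum marker values given above belong to the same comparison, and their part was not tested. Rcor3 passed in 12 of 12 alternatives and Mef2a in 7 of 12.

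The genes whose levels ran most like those of the called members were found over the 59 arrays after the RUV factors were removed, as a description in which arrays of a group share their treatment. For Sin3b these were Lrp8, a reelin receptor (r = 0.811), Igsf9b (r = 0.794) and Synj2, a phosphatase of inositol lipids (r = 0.776). With the RMA values the same pairs had r = 0.433, 0.747 and 0.574. For Tbl1xr1 they were Tecpr2 (r = 0.650), Itga4, an integrin subunit (r = 0.645), and Celf1, an RNA-binding protein (r = 0.603), with r = -0.228, 0.691 and 0.738 in the RMA values. For Hdac9 they were Nav3 (r = 0.690), Sprn (r = 0.669) and Zfp804b (r = 0.660), with r = 0.802, 0.106 and 0.703 in the RMA values. In SD the log2 fold changes were 0.33 for Lrp8, 0.52 for Igsf9b and 0.35 for Synj2, and -0.23 for Nav3, -0.45 for Zfp804b and -0.33 for Itga4, all past the threshold, whereas Tecpr2 (-0.18, adjusted p = 0.0135), Celf1 (-0.11, adjusted p = 0.0255) and Sprn (-0.16, adjusted p = 0.0688) did not pass. Over all probesets 1.93% passed. These genes were chosen for the highest positive r over arrays that include SD and CC6. A shared direction in SD therefore follows in part from the choice and is no separate evidence.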

How the data were processed

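The deposited values were log2 intensities, 1 per probeset and array, made by the authors with RMA, which corrects background, applies quantile normalization and summarises probes. Whether RUV had also been applied to the deposited log2 values is not stated in the sources used here. Of 60 arrays, 59 were given to 9 groups from their labels, and 1 array was left out since its labels disagree on its recovery time. As in the study, a probeset had to exceed a log2 value of 4 on over 50% of the arrays, which 32819 did. RUV was written out in R 4.3.3 as RUVs, with 6 factors as in the study, every kept probeset as a control and each of the 9 groups as a set of replicates. RUVs takes the group labels as given and draws arrays that deviate towards their group. A linear model with the 9 groups and the 6 factors was fitted once over the 59 arrays in limma 3.58.1, and p-values were adjusted over all kept probesets by the method of Benjamini and Hochberg, with a threshold of FDR 0.01. All levels quoted are log2 RMA values before RUV unless RUV is named.

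Compared were the 4 treated groups with controls of their ZT, CC0, CC6 and CC11 with each other, the recovery effects minus that of SD, and an F test over the 5 control groups. Per the labels the mice of a group come from independent repeats of the protocol, which the paper states was run daily. The number of mice limits the precision. Named were all members, list genes past the threshold, and the 3 genes most correlated with each member called in the time-matched comparisons; Hdac1, Tbl1x and Gps2 were named after their values were seen. The members and gene lists were chosen with earlier results of these data known, and gene names come from the platform table. 1 item named in the fixed gene rule is not reported here. The fit was tested on simulated data. Other settings tried were no RUV, 3 or 9 factors, factors subtracted beforehand, no filter or a filter at 6, a second quantile normalization, limma's trend, array weights, the replicate number as a block with and without RUV, and leaving out single mice or the 5 arrays that stand apart. The alternative with other probesets of a member had none to use.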

Additional observations from a re-analysis of the deposited data

Results flagged for a closer look

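Of 72 sets of values, 1 for each measured member and group, 16 held a mouse far from the rest of its group, where chance gives about 1 in 20. Of these, 12 lay on the 5 arrays that stand apart. RS6 replicate 1 was far from the other 6 mice for Hdac3 (10.12), Hdac5 (9.97), Hdac9 (8.09) and Sin3b (9.25). CC0 replicate 1 was far from its group for Hdac3 (9.58), Hdac4 (8.93), Hdac5 (10.05), Hdac9 (8.09), Sin3a (7.77) and Tbl1xr1 (9.48). CC8 replicate 1 was for Hdac5 (9.90), and SD replicate 1 for Sin3b (9.84). The 4 on other arrays were Hdac4 in CC6 replicate 6 (9.47), Hdac7 in RS3 replicate 2 (7.05), Hdac9 in CC6 replicate 1 (8.36) and Sin3a in CC11 replicate 7 (8.47).

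The effect at recovery differed from that of sleep deprivation, by the test of the difference in limma, for Hdac9 at RS6 (0.25 on the log2 scale), for the kinases Sik1 at RS3 (-0.89) and RS6 (-0.94), Sik2 at RS6 (-0.40) and Camk1g at RS3 (-0.52) and RS6 (-0.63), and for the oligodendrocyte gene Opalin at RS6 (0.48), which did not pass with RMA (adjusted p = 0.0443). RS3 and RS6 mice had 5 h of sleep deprivation and SD mice 6 h, and the hours of recovery and of deprivation cannot be told apart.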

How the results depend on the processing

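In SD against CC6 the number of members called lay between 2 and 4 over 26 alternatives, with Sin3b and Tbl1xr1 called in each. At RS2 the count became 1 (Sin3a) with 9 factors (adjusted p = 0.00314 from limma), with the factors subtracted beforehand (0.00322), without the 5 arrays that stand apart (0.00600), with limma's trend (0.00804) and with array weights (0.00969), and it stayed at 0 without each RS2 mouse in turn. At RS3 it became 1 (Sin3b) with 9 factors (0.00619), with the factors subtracted (0.00471) and with a filter at a log2 value of 6 (0.00710). For CC11 against CC0 and for the F test over the control groups it became 1 (Sin3b) with the factors subtracted and without the 5 arrays. The difference of RS6 from SD, with 1 member (Hdac9), became 0 with no RUV, with 3 factors, with no filter and with the replicate block and no RUV, and it lay between 0 and 1 when SD and CC6 mice were left out in turn. Over all probesets the calls numbered 423 with no RUV and 1228 with the factors subtracted in SD (634 reported), 5 and 171 at RS2 (98), 5 and 157 at RS3 (56), 0 and 293 at RS6 (49), 127 and 748 for CC11 against CC0 (320), and 41 and 667 for RS6 minus SD (338). No setting reversed a call. Of 80 member comparisons 71 were never called, and 11 of these changed sign under some setting, the largest of them at 0.10.

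The paper states that the protocol was run daily, with 1 mouse for each time point on a day, so that day may act as a block. The labels do not say that a replicate number marks a day. Same-numbered mice of SD and CC6 had correlations of their deviations between -0.079 and 0.152, over 0.1 in 2 of 7 pairs. Their mean was 0.048, against -0.008 for other pairs. For RS2 and CC8 these means were 0.053 and -0.009, for RS3 and CC8 0.056 and -0.009, and for RS6 and CC11 -0.013 and 0.002. The numbers were not taken to pair mice, and a day effect is not excluded. With the replicate block beside the RUV factors the counts were as reported, 3 in SD and 1 for RS6 minus SD, and with the replicate block and no RUV 4 members passed in SD, with Hdac5 (0.37, adjusted p = 0.00456) the added one. Over all probesets the block with no RUV gave 1031 calls in SD (423 without the block) and 352 for CC11 against CC0 (127). Beside the RUV factors the block gave 592 calls in SD (634 without it) and 165 for CC11 against CC0 (320).

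The set was measured by 1 probeset per gene, so that splice forms cannot be told apart, and the RNA of Ncor1 was not analysed here. RS2 holds 4 mice. A p that misses the threshold does not show that levels were equal, and the 95% intervals of members not called at recovery reached up to 0.25 in size. The cause of these dependences was not tested.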

Other observations

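The array that was left out of all groups, because its labels name different recovery times, had a log2 RMA level of 7.71 for Hdac7, above the highest of the 59 other arrays (7.64). Its Sin3a level of 8.04 lay below the lowest RS2 mouse (8.11) and within the range of the 59 arrays (7.77 to 8.47). For Hdac3 (9.87), Hdac4 (9.64), Hdac5 (9.33), Hdac9 (8.36), Sin3b (9.005) and Tbl1xr1 (9.88) it lay within the range of the 4 RS2 mice.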
